A study of Rattus norvegicus with 24 samples.

Results

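Sham electroacupuncture after partial hepatectomy was compared with hepatectomy alone in the central nucleus of the amygdala (CEA), through the 6 small RNA libraries that carry these labels, 3 of the HT + SEA group and 3 of the HT group. They were chosen by nucleus and treatment label from 24 libraries of the same kind, which come from the CEA and the paraventricular nucleus (PVN). All rats were male Sprague-Dawley rats, 7 weeks old at purchase. HT rats lost about 20% of the left liver lobe under isoflurane. HT + SEA rats had the same operation, and needles were placed on 1 side at the acupoints ST36 and SP6 before and after it, for sessions of 30 min, with no current. Their needles pierced the skin at the points that received current in the HT + EA rats, so the contrast is needle placement without stimulation. NC rats had no operation, and the NC and HT rats were held in the restraint device for as long as the others. The nuclei were dissected 24 h after the final session. Whether 1 library holds 1 rat was not stated, so the p-values measure the spread between these libraries, which may be technical.

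A microRNA (miRNA) is a short RNA that guides the silencing of messenger RNAs, which it finds mainly through its seed, bases 2 to 8 from the 5′ end. Each hairpin precursor can give a 5p and a 3p arm, and miRNAs of the same seed form a family with largely shared targets. The CEA is the output nucleus of the amygdala for fear, pain and stress responses, and it projects to circuits that reach the PVN, where the hormonal stress axis is controlled.

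The HT libraries held 12140138, 9868383 and 13537987 counts and the HT + SEA libraries 14324159, 13078143 and 12673690. The labelled brain tissue carried its markers, since all 16 neuron-enriched miRNAs were counted and together reached 223260 to 280460 CPM in the 6 libraries. CPM here are counts scaled to a common library size, after TMM correction for differences in composition over the 12 CEA libraries. The library labelled HT replicate 1 stood apart. Its scaling factor was 0.824 against 0.981 to 1.055 in the other 11, and miR-148a-3p took 16.1% of its counts against 6.33% to 10.2% elsewhere. HT + SEA replicate 2 stood apart less, with a median correlation of 0.986 with the other CEA libraries. HT + SEA replicate 3 had the lowest neuron-enriched sum of the 6, 223260 CPM, and the highest sums of the oligodendrocyte list, 15448 CPM against 7655 to 10534, and of the myeloid list, 14861 CPM against 8925 to 12198.

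Few miRNAs separated HT + SEA from HT. At the study's threshold, an unadjusted p under 0.05 by edgeR's quasi-likelihood test, 47 of 999 miRNAs were called, or 4.70%, and about 50 would be called if none differed. Of these, 20 were higher in the HT + SEA group (2.0% of those tested) and 27 lower (2.70%). Scaling by library totals in place of TMM turned this split, to 29 higher and 17 lower of 46, and so did leaving out HT replicate 1, to 24 higher and 15 lower of 39. The replicate block, a term for the replicate number, gave 17 higher and 14 lower, and the low-count filter of edgeR 7 and 4. After Benjamini-Hochberg adjustment 4 passed an adjusted p of 0.05, which were miR-223-3p, miR-200b-3p and miR-200a-3p, all higher, and miR-344g, lower. With DESeq2, and with the low-count filter of edgeR, 0 passed the adjusted threshold, while 21 and 11 passed the unadjusted one. In normalised CPM the 2 groups did not overlap for 60 miRNAs, or 6.01%, and 19 of these were among the 47 called.

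Known miRNAs made up 34 of the calls, 18 higher and 16 lower, and predicted miRNAs, which the file names by number, 13. Of the 455 miRNAs whose mean stayed under 10 counts in both groups 15 were called. Among the 380 miRNAs with a mean of at least 100 counts in 1 group 26 were called, the median size of the log2 fold change was 0.144 with a median standard error (SE) of 0.209, and 95% of them moved by less than 0.553. The plot of log2 fold change against mean counts shows the calls at the edge of this band.

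**Figure D1:**
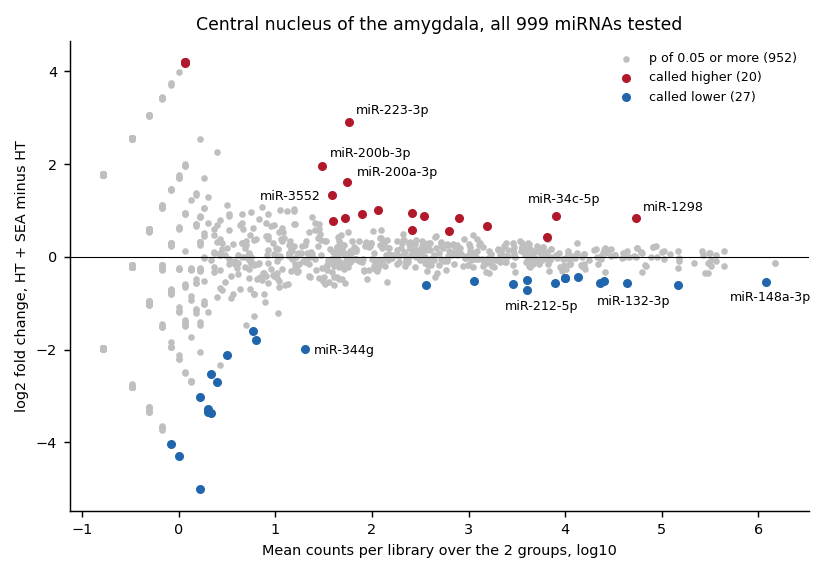
Each point is 1 of the 999 miRNAs tested, with the mean count per library over the HT and HT + SEA groups on the x axis (log10) and the log2 fold change (HT + SEA minus HT) on the y axis. Coloured points are the 20 called higher and the 27 called lower, and miRNAs of few counts spread widely on the left while abundant miRNAs stay near 0.

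Of the 20 higher miRNAs, those inside Htr2c, the miR-34b and miR-34c arms and the miR-200 pair are described as sets, by position and seed. Mature sequences are given from RefSeq on the GRCr8 assembly, with the seed in capitals, and 620 of the 683 known miRNAs tested had one. Among the named miRNAs miR-200b-3p, miR-200a-3p, miR-151-3p and miR-136-5p had none. The first set lies on the X chromosome inside Htr2c, the gene of the serotonin 2C receptor, on its strand; it is shown because 4 of its 7 counted miRNAs were called higher, beside 2.0% of all miRNAs tested, so that count is how the set was picked and not a result.
miR-3552: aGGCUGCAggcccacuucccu
miR-1912-3p: cACAGAACaugcagugaga
miR-1298: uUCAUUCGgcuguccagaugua
miR-448-3p: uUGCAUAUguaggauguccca
These 4 share a host gene and no seed. They lie, in the order given, at chrX:115488778-115488798, chrX:115498072-115498090, chrX:115556987-115557008 and chrX:115642026-115642046.

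The second set is the miR-34b and miR-34c cluster on chromosome 8, shown with 2 relatives because the 5p arms share the seed GGCAGUG and the 3p arms the seed AUCACUA.
miR-34c-5p: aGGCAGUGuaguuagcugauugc
miR-34b-5p: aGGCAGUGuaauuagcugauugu
miR-449a-5p: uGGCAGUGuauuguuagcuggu
miR-34a-5p: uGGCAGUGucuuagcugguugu
miR-34c-3p: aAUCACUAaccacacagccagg
miR-34b-3p: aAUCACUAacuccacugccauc
The hairpins of miR-34c and miR-34b sit at chr8:60306091-60306167 and chr8:60306609-60306692 on the minus strand, and miR-34a and miR-449a are encoded on chromosomes 5 and 2. The lower miRNAs included both arms of the neighbouring miR-212 and miR-132 on chromosome 10, whose 3p arms share the seed AACAGUC.
miR-132-3p: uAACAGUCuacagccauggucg
miR-212-3p: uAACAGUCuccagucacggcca
miR-132-5p: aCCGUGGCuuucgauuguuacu
miR-212-5p: aCCUUGGCucuagacugcuuacug
The arms of miR-212 lie at chr10:60521771-60521794 and chr10:60521811-60521832, and those of miR-132 at chr10:60522055-60522076 and chr10:60522091-60522112. The remaining sequences belong to single miRNAs of the results below, with miR-29a-3p and miR-29c-3p, which share the seed of miR-29b-3p, and miR-3587, from the opposite strand of its hairpin.
miR-223-3p: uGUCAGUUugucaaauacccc
miR-10b-5p: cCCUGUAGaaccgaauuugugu
miR-344g: aGUCAGGCuccuggcaggaguc
miR-29b-3p: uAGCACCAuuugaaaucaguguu
miR-29a-3p: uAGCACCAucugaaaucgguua
miR-29c-3p: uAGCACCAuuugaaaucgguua
miR-3587: aACACUGAuuucaaauggugc
miR-139-5p: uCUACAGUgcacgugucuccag
miR-425-5p: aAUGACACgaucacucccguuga
miR-148a-3p: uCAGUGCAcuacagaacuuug

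Of the miR-200 family, miRNAs of epithelial cells that hold down the repressors ZEB1 and ZEB2, miR-200b-3p and miR-200a-3p were called higher. In the HT libraries miR-200b-3p had 9, 12 and 11 counts, and in the HT + SEA libraries 44, 71 and 37. Every HT + SEA library was thus above every HT library, in normalised CPM 2.88 to 5.41 against 0.810 to 1.19. The log2 fold change was 1.96 with an SE of 0.446 and an adjusted p of 0.0226. miR-200a-3p, from the same cluster on chromosome 5 (hairpins at chr5:171930717-171930805 and chr5:171931495-171931589, minus strand), had 28, 33 and 7 counts against 79, 124 and 64. The groups again did not overlap, with a log2 fold change of 1.62, an SE of 0.408 and an adjusted p of 0.0483. At the unadjusted threshold both were called under all 12 alternative settings and with any 1 library left out. Over these fits the adjusted p ranged from 0.00245 to 0.919 for miR-200b-3p and from 0.000389 to 0.999 for miR-200a-3p.

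These 2 miRNAs were rare, and the wider set of CEA libraries was spread. NC libraries held miR-200b-3p at 1.18, 4.97 and 1.97 CPM and miR-200a-3p at 1.29, 13.0 and 2.35 CPM, so the NC libraries overlapped both groups. The 3 other family members on the lists gave higher values that did not pass the test. They were miR-429 (log2 fold change 1.08, SE 0.698), encoded in the same cluster, and miR-200c-3p (0.71, SE 0.419) and miR-141-3p (0.96, SE 0.76) from chromosome 4. The HT and HT + SEA libraries did not overlap for the last pair, and miR-141-3p was at most 0.684 CPM.

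miR-223-3p, a miRNA of granulocytes and monocytes, had the smallest p of all and rested on 1 library. Its counts were 11, 9 and 12 in the HT libraries and 272, 18 and 22 in the HT + SEA libraries. Replicate 1 of HT + SEA was about an order of magnitude above replicates 2 and 3, which in turn lay just above the HT group, at 1.37 and 1.71 CPM against 0.884 to 1.10. With all 6 libraries the log2 fold change was 2.92 (SE 0.532, adjusted p 0.000847), and without HT + SEA replicate 1 it was 0.67 and was not called. The robust fit of edgeR over all 6 libraries did not call miR-223-3p either (unadjusted p 0.107). DESeq2 gave no p for it.

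Over the 12 CEA libraries miR-223-3p took 2 separate levels. In 5 libraries it was at 10.2 to 18.6 CPM, namely NC replicates 2 and 3, HT + EA replicates 2 and 3 and HT + SEA replicate 1, and in the other 7, all 3 of HT among them, at 0.884 to 1.71 CPM. miR-10b-5p, encoded inside Hoxd4 and scarce in forebrain, was at 133 to 192 CPM in the same 5 libraries and at 11.4 to 67.8 CPM in the other 7. Its counts in the comparison were 164, 544 and 810 in HT and 2275, 149 and 872 in HT + SEA, so the groups overlapped. The log2 fold change of miR-10b-5p was 0.84 (SE 0.362, unadjusted p 0.023) and turned to -0.15 without HT + SEA replicate 1, and DESeq2 did not call it. miR-142-3p, another leukocyte miRNA, did not follow this split, at 29.3 to 50.6 CPM in the 5 libraries and 25.9 to 49.4 CPM in the 7. In the PVN, HT + SEA replicate 1 was also the high library of its group for both, with 10.9 CPM of miR-223-3p and 132 CPM of miR-10b-5p, against at most 1.63 and 31.9 CPM in the other 2.

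**Figure D2:**
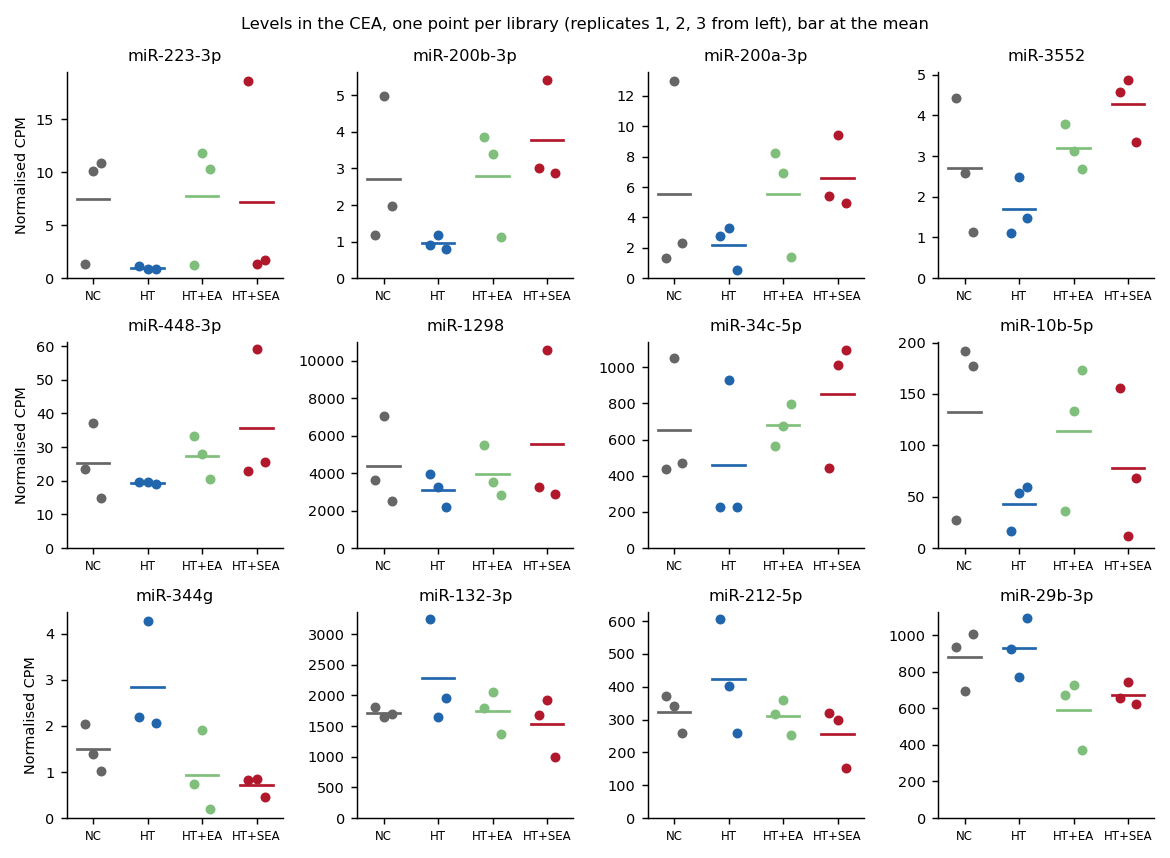
Normalised CPM of 12 named miRNAs in the CEA, with 1 point per library, replicates 1 to 3 from left to right within each of the NC, HT, HT + EA and HT + SEA groups, and a bar at the group mean; each y axis starts at 0. miR-200b-3p, miR-200a-3p, miR-3552 and miR-448-3p show every HT + SEA library above every HT library, while the HT + SEA mean of miR-223-3p and of miR-1298 rests on 1 high library.

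The miRNAs inside Htr2c lie in a gene that neurons express and that is abundant in the choroid plexus. miR-3552 had 11, 25 and 20 counts in HT and 67, 64 and 43 in HT + SEA, with no overlap. Its log2 fold change was 1.34 (SE 0.405, unadjusted p 0.00158), called in every setting and with any library left out. miR-448-3p had 197, 197 and 257 counts against 333, 775 and 329, again with no overlap and with replicate 2 of HT + SEA far above the others. The log2 fold change of miR-448-3p was 0.89 (SE 0.271, unadjusted p 0.00181), and 0.31 and not called without that library.

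The other 2 called miRNAs of this gene rested on HT + SEA replicate 2. miR-1298, the most abundant of them, had 39356, 32580 and 29710 counts in HT and 47576, 139006 and 36854 in HT + SEA. The groups overlapped once scaled, since HT + SEA replicate 3 was at 2864 CPM and HT replicate 1 at 3935 CPM. Its log2 fold change of 0.84 (SE 0.248, unadjusted p 0.00123) became -0.03 without HT + SEA replicate 2, and DESeq2 did not call it. miR-1912-3p had 60, 35 and 48 counts against 49, 224 and 55, with a log2 fold change of 0.93 (SE 0.384) that became -0.19 without the same library and was not called by DESeq2. The remaining 3, miR-764-5p (0.27), miR-764-3p (-0.25) and miR-448-5p (-0.05), were not called. For 6 of the 7, HT + SEA replicate 2 was the highest of the 12 CEA libraries.

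All 4 arms of miR-34b and miR-34c, miRNAs abundant in ciliated cells such as those of the ependyma and choroid plexus, were called higher. miR-34c-5p had 2267, 9349 and 3060 counts in HT and 6460, 13303 and 14107 in HT + SEA. HT replicate 2 was as high as the HT + SEA libraries, at 929 CPM against 442 to 1096, and HT replicates 1 and 3 were low, at 227 and 225 CPM. The log2 fold change of miR-34c-5p was 0.88 (SE 0.279, unadjusted p 0.00252). The other 3 arms moved alike, with log2 fold changes of 1.0 for miR-34c-3p (SE 0.355), 0.95 for miR-34b-3p (SE 0.346) and 0.84 for miR-34b-5p (SE 0.416). The value of miR-34c-5p ranged from 0.54 to 1.90 with 1 library left out, and it was not called without HT replicate 3 or HT + SEA replicate 1, nor by DESeq2. miR-34b-3p was lost in the same cases, miR-34c-3p without HT replicate 3, and miR-34b-5p by DESeq2 and without HT replicate 1 (0.38), HT replicate 3, HT + SEA replicate 1 or HT + SEA replicate 3. All 4 arms were also lost with either low-count filter (that of edgeR or a minimum of 10 counts), with known miRNAs only and with the robust fit, and miR-34b-5p with DESeq2 size factors, with identical counts taken once and with all 4 CEA groups in the fit. miR-449a-5p, of the same seed and also made in ciliated cells, gave 0.87 (SE 0.465, unadjusted p 0.0667), and miR-34a-5p, of the same seed and broadly expressed, gave 0.05 (SE 0.219).

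The called miR-200a-3p, miR-200b-3p, miR-34c-5p and miR-34b-5p stand on the list of epithelial, choroid plexus and ependymal miRNAs, whose median change was the largest in size of the 16 lists examined. Of its 13 members 5 were called higher, beside 2.0% of all miRNAs tested, and 0 lower, 12 had a log2 fold change above 0, and the median was 0.84, beside 0.02 over all 999 miRNAs. The list was chosen with earlier results of these data known, and its median SE, 0.416, was also the largest of the 16 lists. The calls of miR-200a-3p and miR-200b-3p come from 1 cluster, those of miR-34c-5p and miR-34b-5p from another, so the 5 are not independent. The fifth called member was miR-204-5p, a miRNA of the choroid plexus and the retinal pigment epithelium encoded inside Trpm3, with a log2 fold change of 0.43 (SE 0.207, unadjusted p 0.0422) and its highest level, 881 CPM, in HT + SEA replicate 2. Without that library miR-204-5p was at 0.02 and not called, and DESeq2 and the low-count filter did not call it either. The summed level of the list was 764, 1409 and 638 CPM in the HT libraries and 939, 1954 and 1589 CPM in the HT + SEA libraries. The sums overlapped, and NC libraries spanned 877 to 1843 CPM. The number called in this list was 2 without HT replicate 3 or HT + SEA replicate 1, and 4 or 5 without any other library, and it was 2 with DESeq2 and with the low-count filter. In pieces of tissue, fewer cells of a type and less RNA per cell cannot be told apart, and how much of such epithelium each CEA piece held was not tested.

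Lists of other cell types held 0 or 1 call each, beside 2.0% called higher and 2.70% called lower of all miRNAs tested. None of the 16 neuron-enriched miRNAs was called, with a median log2 fold change of -0.03, and the same held for the 6 oligodendrocyte miRNAs (median 0.18) and the 6 endothelial and mural miRNAs (median 0.09). With the robust fit or all 4 CEA groups in the fit, 2 neuron-enriched miRNAs were called lower. That number was also 2 without HT replicate 2 or HT + SEA replicate 2, and 1 without HT replicate 1. In the oligodendrocyte list 1 was called higher with library totals, the robust fit, and without HT replicate 2 or HT + SEA replicate 2. Without HT replicate 1 this list had 1 called lower, and without HT replicate 3 the endothelial and mural list had 1 called higher. Among 11 myeloid and inflammation miRNAs miR-223-3p alone was called, and the median was 0.07. Without HT + SEA replicate 3 the medians turned to -0.15 for the oligodendrocyte list, with 1 member then called lower, and to -0.14 for the myeloid list. miR-451-5p, an erythrocyte miRNA, was the single called member of 7 red cell and liver miRNAs, all 7 of which were above 0 (median 0.25). It had 599, 1242 and 1388 counts in HT and 2163, 1370 and 2584 in HT + SEA, overlapping between groups, with a log2 fold change of 0.66 (SE 0.228, unadjusted p 0.00531). It was not called without HT + SEA replicate 3 (0.40) or HT + SEA replicate 1 (0.66), nor with the low-count filter, and without HT + SEA replicate 3 the list had 0 calls and a median of -0.03. The liver miRNA miR-122-5p was at 0.02 (SE 0.533). Of 6 striated muscle miRNAs miR-206-3p was called, with a log2 fold change of 0.58 (SE 0.262). It was not called without HT replicate 2, HT replicate 3 or HT + SEA replicate 3, and was at 0.28 without the last.

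Of the remaining higher miRNAs, named after their values were seen, miR-653-5p had 381, 637 and 289 counts in HT and 1140, 776 and 559 in HT + SEA, and the groups overlapped in CPM. Its log2 fold change was 0.56 (SE 0.261, unadjusted p 0.0356), and it was not called by DESeq2, with either low-count filter, or without HT replicate 3 (0.23) or HT + SEA replicate 1 (0.31). miR-503-3p had 16, 24 and 38 counts against 56, 49 and 54, without overlap in CPM. For miR-503-3p the log2 fold change was 0.78 (SE 0.386, unadjusted p 0.0479), and it was not called by DESeq2 or without any 1 library except HT replicate 3. The last 3, miR-3593-3p and a pair of predicted miRNAs, had 0 counts in every HT library and at most 7 in any HT + SEA library.

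**Figure D3:**
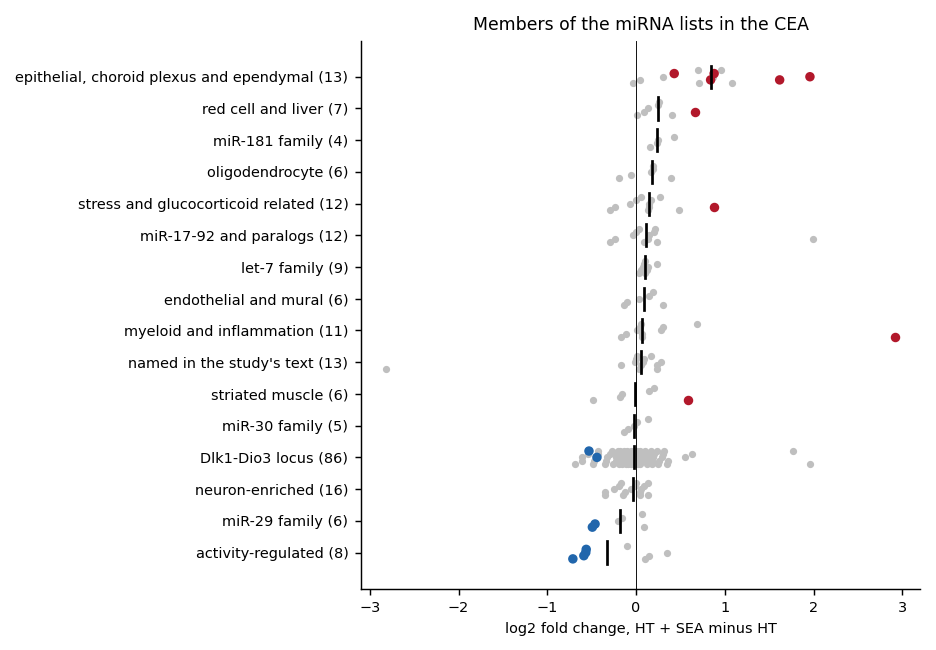
log2 fold changes (HT + SEA minus HT, x axis) of the members of 16 miRNA lists, with the number tested in parentheses, called members in colour and a black bar at the median. The epithelial, choroid plexus and ependymal list has its median at 0.84, the activity-regulated list at -0.33 and the other 14 lists between -0.18 and 0.25.

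On the lower side, miR-344g was the only miRNA past the adjusted threshold. It belongs to the rodent miR-344 family and was rare, with 22, 43 and 28 counts in HT and 12, 11 and 6 in HT + SEA. Every HT + SEA library was below every HT library, at 0.466 to 0.838 CPM against 2.06 to 4.27. The NC libraries, at 1.03 to 2.05 CPM, and the HT + EA libraries, at 0.197 to 1.91 CPM, were also below every HT library. The log2 fold change of miR-344g between HT + SEA and HT was -1.98 (SE 0.485, adjusted p 0.0438). At the unadjusted threshold it was called under all 12 alternatives and with any library left out. Its adjusted p ranged from 0.00434 to 0.919 over these fits. miR-344b-5p, of the same seed GUCAGGC, was at 0.02 (SE 0.243).

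The 4 arms of miR-132 and miR-212, miRNAs that neuronal activity induces through CREB, were all lower in HT + SEA. miR-212-5p had 6055, 4055 and 3507 counts in HT and 4671, 3939 and 1945 in HT + SEA. miR-132-3p had 32516, 16550 and 26586 against 24699, 25254 and 12867. In CPM the highest of the 6 libraries was HT replicate 1 for both and the lowest HT + SEA replicate 3, and the groups overlapped. HT + SEA replicate 3 also had the lowest neuron-enriched and the highest oligodendrocyte sum of the 6, and the part of this in the values was not tested. The log2 fold changes were -0.71 for miR-212-5p (SE 0.227, unadjusted p 0.00262), -0.57 for miR-132-3p (SE 0.208), -0.56 for miR-132-5p (SE 0.21) and -0.59 for miR-212-3p (SE 0.221). Without HT replicate 1 they were -0.37, -0.23, -0.22 and -0.29, and miR-212-5p alone was called. These arms were the 4 members called of 8 activity-regulated miRNAs (median -0.33), beside 2.70% called lower of all miRNAs tested, and the other 4 included miR-134-5p at 0.11 (SE 0.192) and miR-485-5p at -0.10 (SE 0.198), both of dendrites. The number called in the list was 4 without HT replicate 2, HT replicate 3 or HT + SEA replicate 2, 1 without HT replicate 1 or HT + SEA replicate 3, and 0 without HT + SEA replicate 1 or with the low-count filter.

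miR-29b-3p, which lowers collagens and DNA methyltransferases and is raised in mature neurons, was lower without overlap of the groups. It was at 926, 771 and 1092 CPM in HT and at 657, 745 and 621 CPM in HT + SEA. The log2 fold change was -0.46 (SE 0.187, unadjusted p 0.0165). It was not called with library totals (-0.37) or without HT replicate 3 (-0.35) or HT + SEA replicate 1 (-0.46). miR-3587 had nearly the same counts in every library, and RefSeq places it on the opposite strand of the same hairpin, at chr4:60618342-60618362 against chr4:60618342-60618364, so the 2 calls are a single signal. The seed family did not move as one, since miR-29a-3p was at 0.09 (SE 0.184) and miR-29c-3p at 0.07 (SE 0.225). miR-29c-5p was called, without overlap, at -0.49 (SE 0.205). HT replicate 1 was at 559 CPM and the other HT libraries at 301 and 305 CPM, against 255 to 292 CPM in HT + SEA. Without HT replicate 1 the value of miR-29c-5p was -0.14, and it was not called there, with library totals (-0.36) or without HT + SEA replicate 1. Both low-count filters, known miRNAs only and the replicate block lost its call too. Of the 6 miR-29 miRNAs tested 2 were called lower, beside 2.70% of all miRNAs tested. That number was 0 with library totals or without HT + SEA replicate 1, and 1 without HT replicate 1 or HT replicate 3, with either low-count filter, with known miRNAs only and with the replicate block.

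miR-136-5p, of the imprinted Dlk1-Dio3 locus, was lower in each HT + SEA library, at 985, 952 and 871 CPM against 1215, 1329 and 1265 CPM in HT. Its log2 fold change was -0.44 (SE 0.182, unadjusted p 0.0184). It and miR-493-3p (-0.53, SE 0.223) were the 2 called of the 86 miRNAs of that locus, whose median was -0.03, a share no higher than the 2.70% called lower of all miRNAs tested. With library totals 0 of the 86 were called. The number called lower was 5 without HT replicate 3, 4 without HT replicate 2 and 3 without HT + SEA replicate 2. It was also 3 with upper quartile scaling, DESeq2 size factors, the robust fit and all 4 CEA groups in the fit. It was 1 with the low-count filter of edgeR and without HT replicate 1, HT + SEA replicate 1 or HT + SEA replicate 3. miR-136-5p was not called with library totals (-0.35) or without HT replicate 2 (-0.42). miR-493-3p was at -0.21 and not called without HT replicate 1, nor without HT + SEA replicate 1 or HT + SEA replicate 3. miR-425-5p, of the miR-191 and miR-425 cluster, was at 1155, 607 and 580 CPM in HT and at 571, 525 and 490 CPM in HT + SEA, again without overlap. Its log2 fold change was -0.56 (SE 0.203, unadjusted p 0.00758), and -0.17 and not called without HT replicate 1. Library totals (-0.42), the low-count filter of edgeR and leaving out HT + SEA replicate 1 (-0.64) lost the call too.

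The values of 3 other lower miRNAs shrank toward 0 without HT replicate 1. miR-148a-3p had 1958526, 851243 and 1033687 counts in HT and 1258894, 1274712 and 802284 in HT + SEA. Its log2 fold change of -0.53 (SE 0.214) became 0.02 without HT replicate 1, and its seed relatives miR-148b-3p and miR-152-3p were at 0.07 and 0.15. miR-139-5p, encoded inside Pde2a, was at 24256, 8986 and 11323 CPM in HT and at 9846, 12949 and 6441 CPM in HT + SEA, and its log2 fold change of -0.60 (SE 0.222) became -0.06. DESeq2 called neither of these 2. That of miR-151-3p, -0.53 (SE 0.199), became -0.13.

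**Figure D4:**
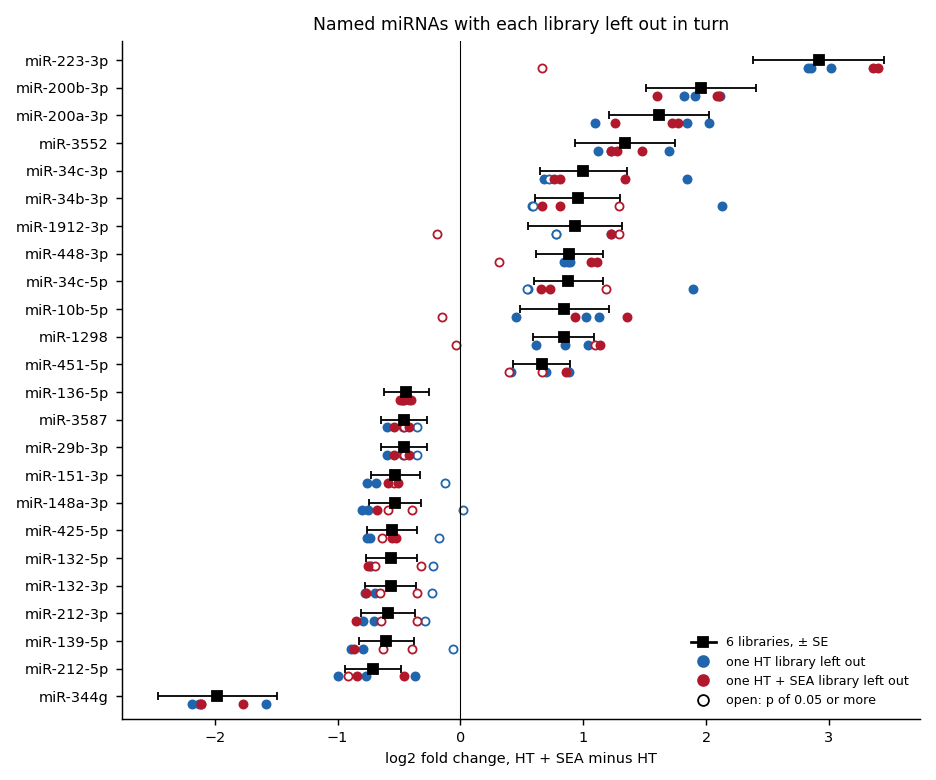
log2 fold changes (HT + SEA minus HT, x axis) of the 24 named miRNAs with all 6 libraries (squares, bars ± SE) and with each library left out in turn (circles, blue for HT and red for HT + SEA, open where p was 0.05 or more). The circles of miR-200b-3p, miR-200a-3p, miR-3552 and miR-344g are all filled, while those of miR-1298, miR-1912-3p, miR-10b-5p and miR-148a-3p cross 0.

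The remaining lists, of stress related miRNAs, of families or clusters and of the study's networks, held 0 or 1 call each. Of all miRNAs tested 2.0% were called higher. Of 12 stress and glucocorticoid related miRNAs miR-34c-5p was called, and the median was 0.14. The list had 0 calls with DESeq2, with either low-count filter, with known miRNAs only, with the robust fit, and without HT replicate 3 or HT + SEA replicate 1. It had 2 calls with the replicate block and 2 without HT replicate 2. No call fell among 9 let-7 miRNAs (median 0.10), 5 of the miR-30 family (-0.02), 4 of the miR-181 family (0.24) or 12 of the miR-17-92 cluster and its paralogs (0.11). Without HT + SEA replicate 3 the medians of the stress, let-7 and miR-17-92 lists turned to -0.02, -0.03 and -0.06. Of 13 miRNAs taken from the study's own target and circRNA networks 0 were called here (median 0.05). That list leaves out miR-212 and miR-142, which the study cites from earlier work, and both arms of miR-212 were called lower. It takes miR-3084a-3p for the name written there without the letter. The common biological coefficient of variation between libraries was 0.243, and an uncalled miRNA is not shown to be equal.

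The same comparison in the PVN uses other libraries. Per the methods, samples of brain were from separate rats within a shared batch, but they also divide 12 rats into the 4 groups, which together gave 24 libraries, so whether the 2 nuclei share rats is not clear. There 83 of 1000 miRNAs, or 8.30%, passed the unadjusted threshold. Of the 32 known miRNAs called in the CEA with a mean of at least 10 counts in 1 group, 29 had the same sign in the PVN and 16 were also called there in that direction, while 0 were called in the opposite one. The 32, the 29 and the 16 each take miR-29b-3p and miR-3587, a single signal, as 2 miRNAs. Of the 499 such miRNAs not called in the CEA, 284 (56.9%) had the same sign and 38 were called with it. miR-200a-3p gave a log2 fold change of 1.34 in the PVN (SE 0.243, adjusted p 0.00678) and miR-200b-3p 1.32 (SE 0.259, adjusted p 0.0105). PVN levels of miR-200b-3p were 5.78, 3.28 and 3.13 CPM in HT and 8.64, 9.48 and 12.9 CPM in HT + SEA, without overlap. The PVN NC libraries held it at 10.2, 22.5 and 6.37 CPM. Each was above every HT library, and they lay on both sides of the HT + SEA range. The HT + EA libraries of the PVN overlapped both groups. For miR-200a-3p the PVN NC libraries, at 6.42, 41.8 and 9.28 CPM, overlapped the HT libraries and lay on both sides of the HT + SEA range. miR-29b-3p was at -0.57 there (SE 0.151, unadjusted p 0.000802) and miR-344g at -0.90 (SE 0.368, unadjusted p 0.0212). miR-212-5p was called there in the same direction, at -0.33 (SE 0.142, unadjusted p 0.0287), and miR-132-3p and miR-212-3p, at -0.12 and -0.09, were not.

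**Figure D5:**
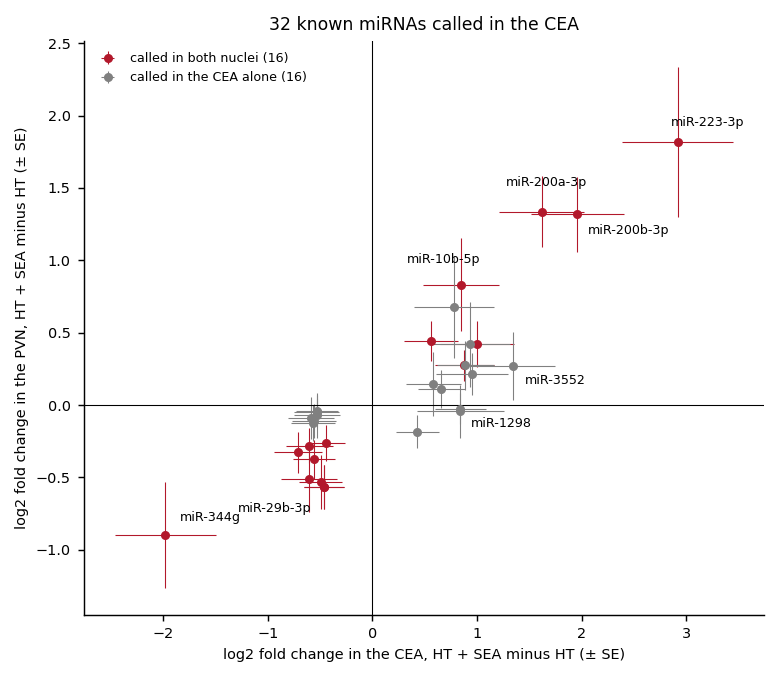
log2 fold changes (HT + SEA minus HT, ± SE) in the CEA (x axis) and the PVN (y axis) of the 32 known miRNAs called in the CEA with a mean of at least 10 counts in 1 group. The 16 called in both nuclei are red, and 29 of the 32 lie in the upper right or lower left of the plot. Both miR-29b-3p and miR-3587, a single signal, are among the 16.

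The difference between the nuclei was itself tested, over the 12 HT and HT + SEA libraries. An unadjusted p under 0.05 was reached by 28 of 1052 miRNAs, or 2.66%, and by 11 with DESeq2, with 0 at an adjusted p under 0.05 in either. Inside Htr2c the difference of log2 fold changes (CEA minus PVN) was 1.07 for miR-3552 (SE 0.446, unadjusted p 0.0222) and 0.83 for miR-1298 (SE 0.379, unadjusted p 0.034). That of miR-1298 was 0.00 without HT + SEA replicate 2 of the CEA and was not called by DESeq2. For miR-448-3p (0.59, SE 0.361, unadjusted p 0.109) and miR-1912-3p (0.48, SE 0.572, unadjusted p 0.411) the difference was not called. miR-1298 was even in the PVN, at 2677 to 2862 CPM in HT and 2616 to 2996 CPM in HT + SEA. For miR-204-5p the difference was 0.59 (SE 0.275, unadjusted p 0.0394), and 0.22 and not called without the same library, nor by DESeq2. For the miR-200 pair it was not called under any of the 18 settings tried, with values between -0.24 and 0.83.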

How the data were processed

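Per the labels and the study's methods, the small RNA kit was of the NEBNext series. The authors deposited whole-number counts per miRNA, known and predicted, without normalization. HISAT2 and featureCounts are named for the reads; how miRNAs were counted is not given in the sources used here, and the genome build is given as rat in the methods and as human in the processing notes. Where 2 miRNAs overlap on opposite strands or share a sequence, the counts can hold the same reads. 24 further columns, whose names matched no label, were not used.

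The counts of the 6 libraries were tested with edgeR 4.0.16 (TMM, quasi-likelihood, at least 1 count in all) in R 4.3.3, with Benjamini-Hochberg adjustment. The study used DESeq2 at an unadjusted p of 0.05; DESeq2 1.42.0 was an alternative. The moderation took 57.5 prior degrees of freedom from all miRNAs, beside 4 from the libraries. The nuclei were compared by an interaction term over 12 libraries. CPM were scaled by TMM within a nucleus. The scripts were tested on simulated counts.

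Named were the 12 known miRNAs of smallest p in each direction with a mean of at least 10 counts in 1 group, every miRNA of adjusted p under 0.05 and members of 16 lists; the other miRNAs of Htr2c and of a shared seed were added after their values were seen. The comparison and the lists were chosen with earlier results of these data known. Totals per library, 9868383 to 14324159, set the counting precision, and PCR reads are not independent molecules. Alternatives were other scalings, filters, tools and blocks, and each library left out.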

Additional observations from a re-analysis of the deposited data

Results flagged for a closer look

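The difference between the CEA and the PVN in the effect of sham needling had an unadjusted p under 0.05 by edgeR for 28 of 1052 miRNAs, or 2.66%, and 0 passed the adjusted threshold. The 6 below are those among the named miRNAs and list members, each with an adjusted p of 1.0, and values are differences of log2 fold changes, CEA minus PVN. It was 1.07 for miR-3552 (SE 0.446, edgeR unadjusted p 0.0222), 0.83 for miR-1298 (SE 0.379, unadjusted p 0.034) and 0.59 for miR-204-5p (SE 0.275, unadjusted p 0.0394). HT + SEA replicate 2 of the CEA was the highest of the 12 CEA libraries for these 3. The difference was called under 15 of 18 other settings for miR-3552, with values from 0.84 to 1.42. For miR-1298 and miR-204-5p it was called under 12 of 18 each, with values from 0.00 to 1.16 and from 0.22 to 0.78.

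For the liver miRNA miR-122-5p the difference was 2.21 (SE 0.857, unadjusted p 0.0139), and 0.09 and not called without PVN HT replicate 1, which was at 12.4 CPM against 1.06 and 1.13 in the other PVN HT libraries. For miR-3084a-3p, on the list from the study's networks, the difference was 1.25 (SE 0.559, unadjusted p 0.0318), called under 14 of 18 settings. For miR-182 it was -0.75 (SE 0.346, unadjusted p 0.0362), called under 10 of 18 settings. In the CEA alone none of miR-122-5p (0.02), miR-3084a-3p (0.09) and miR-182 (0.04) was called, with both groups overlapping.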

How the results depend on the processing

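For HT + SEA against HT in the CEA, where 47 miRNAs were called, DESeq2 called 21 and DESeq2 with its prior 19, the filter filterByExpr 11, a minimum of 10 counts 21, known miRNAs only 16, the replicate block 31 and the adjusted threshold 4. The number adjusted was 0 with both DESeq2 fits, both filters, known miRNAs only, all 4 CEA groups in the fit and without HT + SEA replicate 1. It was 17 without HT replicate 2, 6 with library totals and 5 without HT replicate 1. The prior degrees of freedom fell to 5.79 under filterByExpr and 4.39 without HT + SEA replicate 1. Every miRNA called by DESeq2 or filterByExpr was among the 47. Other scalings, the robust fit, all 4 groups and identical counts taken once called 44 to 46. With 1 library left out 17 (without HT + SEA replicate 1) to 58 (without HT replicate 2) were called. Library totals gave 63.0% of calls higher against 42.6%, with a median shift of 0.0879; filterByExpr gave 63.6%, and the robust fit 34.1%. For the difference between the nuclei, with 28 called, DESeq2 called 11 and filterByExpr 7, and leaving out 1 library gave 20 to 55; the calls were 55 without CEA HT replicate 2, 49 without CEA HT replicate 3 and 45 without CEA HT + SEA replicate 2. Of 430 values of the 24 named miRNAs, 318 kept direction and call, 108 kept the direction and lost the call, and 4 reversed, at -0.0336 (otherwise up to 1.14) for miR-1298, -0.19 (up to 1.29) for miR-1912-3p, -0.15 (up to 1.36) for miR-10b-5p and 0.0220 (otherwise from -0.80) for miR-148a-3p, each with 1 library left out. filterByExpr lost the call of 15 of the 24, a minimum of 10 counts that of 13, and DESeq2 that of 7 of 23. The causes were not tested. Same-numbered libraries correlated at 0.109, -0.184 and 0.129 in their deviations, and 2 of the 3 HT libraries correlated better with another number, so the numbers were not taken to pair libraries; the replicate block called 31, with 7 adjusted, and 24 between the nuclei.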
